A study of Mus musculus with 4 samples.

Results

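Of the 982 entries in the deposited miRNA table, 104 carry the name of a hairpin, written with a lower-case mir and no arm ending, and these entries are described here in all 4 libraries. Another 736 entries end in an arm suffix (5p or 3p), and the rest are mature miRNAs without one. The hairpin-named entries were chosen by name alone, and no measured value was used. The cells were interstitial cells of Cajal (ICC), the Kit-bearing pacemaker cells of the gut muscle, dissociated from whole jejunum or whole colon of C57BL/6 mice between 11 and 20 weeks of age and sorted for green fluorescence. All animals carried 1 KitcopGFP reporter allele (KitcopGFP/+), so the sort enriches cells that express from the Kit locus. No miRNA is used here as a defining marker of ICC, so the label itself was not checked against one. The controls were Lepob/+ heterozygotes (ob/+, labelled healthy) and the other group Lepob/ob homozygotes (ob/ob, labelled diabetic), which lack functional leptin. Each of the 4 libraries came from 1 pool (15 each, as the labels put it), and values are given throughout for jejunum first and colon second, with ob/+ before ob/ob in each tissue.

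A miRNA begins as a hairpin folded from a longer transcript. The nuclease Drosha frees the hairpin, Dicer cuts it to a short duplex, and 1 strand is kept as the mature miRNA that guides Argonaute to messenger RNAs. Some counting schemes give a read that falls on a hairpin outside the annotated mature strand to an entry with the hairpin's own name. Mouse hairpins registered late in the catalogue include several that lie in B1 or B2 elements, short interspersed repeats present in great numbers throughout the genome, and mir-6240 is known for a hairpin close in sequence to a stretch of large-subunit ribosomal RNA. The deposited table gives a count per entry and no read positions, so which bases of a hairpin were read was not analysed here.

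Of the 104 hairpin names, 77 matched a hairpin and 89 a mature sequence in the RefSeq miRNA table of build GRCm38.p6, and 14 matched neither. Hairpins of 3 entries are shown because they span the kinds of sequence met among the members: mir-6240 (chr5:114851948-114852064, plus strand) is the hairpin called with the most counts, mir-1954 (chr2:32652329-32652414, plus strand, within Eng, the TGF-beta co-receptor endoglin) carries the letters of a B1 element, and mir-3473f (chr1:106546496-106546631, minus strand, within Bcl2, an inhibitor of apoptosis) those of a B2 element. Capitals mark the annotated mature strand, so the lower-case letters are the part that a hairpin-named count may cover.
mir-6240 hairpin: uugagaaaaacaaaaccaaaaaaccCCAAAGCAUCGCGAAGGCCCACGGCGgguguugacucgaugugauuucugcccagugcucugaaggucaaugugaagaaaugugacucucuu
mir-1954 hairpin: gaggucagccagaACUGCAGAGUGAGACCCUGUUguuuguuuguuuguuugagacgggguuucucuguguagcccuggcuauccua
mir-3473f hairpin: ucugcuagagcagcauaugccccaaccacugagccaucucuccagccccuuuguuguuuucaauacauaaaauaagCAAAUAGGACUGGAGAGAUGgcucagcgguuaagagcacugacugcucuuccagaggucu

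Mature strands of the tested members follow, with the seed (bases 2 to 8, which pair with target messages) in capitals. They belong to mir-6236 (chr9:110281353-110281371, plus strand, within the long noncoding RNA gene Gm39429), mir-6240 (chr5:114851973-114851998, plus), mir-1954 (chr2:32652342-32652362, plus), mir-3470b (chr16:44013885-44013905, plus, within Gramd1c), mir-5098 (chr5:77272767-77272787, plus, within Rest, a repressor of neuronal genes), mir-8111 (chr8:84005704-84005724, plus), mir-1195 (chr17:70860558-70860580, minus) and mir-1946b (chr9:21613452-21613477, minus).
miR-6236: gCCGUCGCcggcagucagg
miR-6240: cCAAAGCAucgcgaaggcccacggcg
miR-1954: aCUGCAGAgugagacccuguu
miR-3470b: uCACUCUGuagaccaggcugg
miR-5098: gUUACAUGgugaagcccaguu
miR-8111: aCCGGGCAugguaguguacac
miR-1195: uGAGUUCGaggccagccugcuca
miR-1946b: gCCGGGCAgugguggcacaugcuuuu
miR-8111 and miR-1946b share the seed, and the other 6 seeds differ from it and from each other. miR-3470b and miR-1195 are letters of B1 elements, as are the openings of miR-8111 and miR-1946b. mir-3535, mir-3470a, mir-1194, mir-682 and mir-6360 are also tested members.

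The libraries held 466335, 433201, 716476 and 267077 miRNA counts from 2068523, 3511669, 2727038 and 2511371 mappable reads. Mappable reads that were not counted to a miRNA made up 77.5%, 87.7%, 73.7% and 89.4%, so both ob/ob libraries held less miRNA per mappable read than both ob/+ libraries. Levels below are therefore given as CPM (counts per 1000000 miRNA counts, after trimmed mean of M-values scaling, TMM) or as RPM (counts per 1000000 mappable reads), with the scale named. Marker miRNAs of other cells also moved with genotype on the CPM scale, the only scale on which they were summed. The summed level of 4 fibroblast miRNAs was 4798, 963, 4995 and 888 CPM, and all 4 fell in ob/ob. Epithelial miRNAs summed to 2088, 356, 897 and 283 CPM, and 4 of the 6 tested fell. Leukocyte miRNAs summed to 785, 1445, 716 and 1083 CPM, with 1 of 6 tested rising, and none of 4 smooth muscle miRNAs passed. A CPM direction need not hold in RPM. In CPM, both ob/ob libraries lay above both ob/+ libraries for miR-342-3p (leukocyte) and miR-145a-5p (smooth muscle). In RPM they did not, at 125, 144, 138 and 108 and at 27874, 23465, 24282 and 17092. The leukocyte miR-342-5p, which rose, stayed above in RPM, at 8.70, 16.5, 9.17 and 11.9. In a bulk library fewer cells of a type and less RNA per cell cannot be told apart. No marker on these lists was at 0 in all libraries, and their part in the results on hairpin-named entries was not tested. With 1 library per tissue and genotype there is no replicate within a cell of the design, and intervals of shares and within-tissue ratios cover counting error only.

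Hairpin-named entries held 1406, 2244, 1617 and 1592 counts, fractions of a count included. They made up 0.302% (exact binomial 95% interval 0.286 to 0.318), 0.518% (0.497 to 0.540), 0.226% (0.215 to 0.237) and 0.596% (0.567 to 0.626) of the miRNA counts. The share was higher in the ob/ob library of both tissues, 1.72 times in jejunum (exact conditional interval 1.61 to 1.84) and 2.64 times in colon (2.46 to 2.83). On the RPM scale the same counts came to 679.8 (645 to 716), 639 (613 to 666), 593 (564 to 623) and 634 (603 to 666). The RPM ratio of ob/ob over ob/+ was 0.941 (0.880 to 1.01) for the jejunal pair and 1.07 (0.997 to 1.15) for the colonic pair, and both intervals include 1. The summed level of hairpin-named entries therefore differed between genotypes only relative to the miRNA counts, among these 2 denominators.

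**Figure D1:**
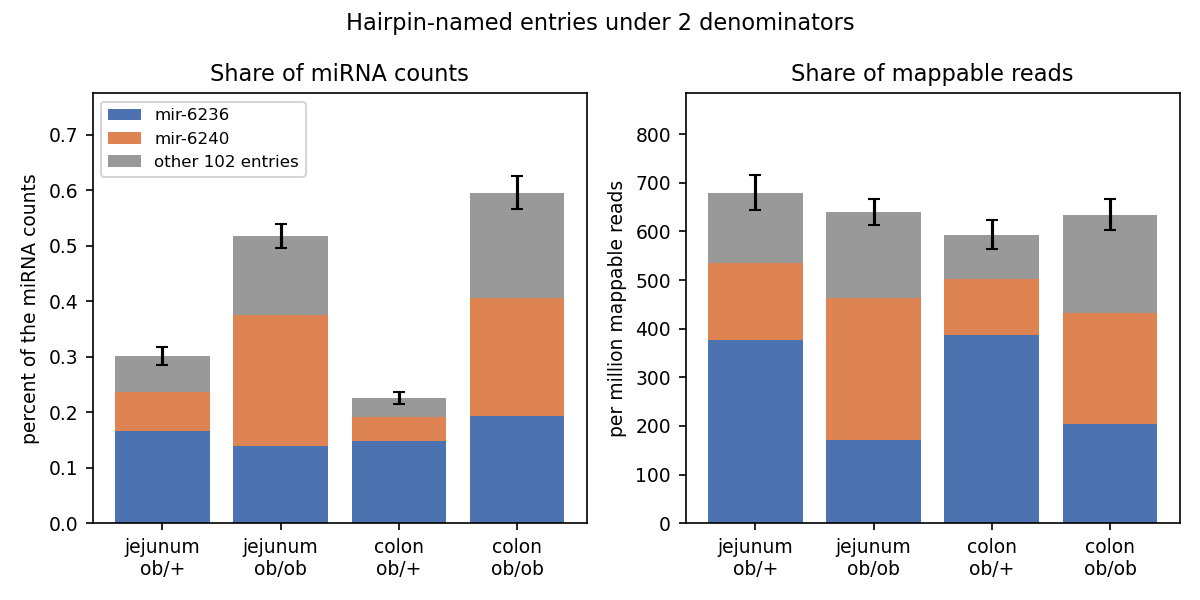
Hairpin-named entries as percent of the miRNA counts (left) and as RPM of mappable reads (right) in the 4 libraries. Bars stack mir-6236, mir-6240 and the other 102 entries, and error bars are exact binomial 95% intervals of the total. The ob/ob bars are the taller ones on the left, 0.518% and 0.596%, while on the right the 4 totals lie between 593 and 679.8.

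The near-equal totals per mappable read hid opposite movements of the 2 largest members. mir-6236 was counted 779, 600, 1056 and 514 times and mir-6240 327, 1027, 311 and 571 times. Together they took 78.7%, 72.5%, 84.5% and 68.2% of the hairpin-named counts. mir-6236 stood at 377, 171, 387 and 205 RPM, with both ob/ob libraries under both ob/+ libraries. In RPM 67.4% of all tested entries had that order, so it is not particular to mir-6236. mir-6240 stood at 158, 292, 114 and 227 on the same scale, with both ob/ob libraries above, as for 13.7% of all tested entries. The other 102 entries summed to 300.2, 617, 250.1 and 507 counts, and their ob/ob sums of 176 and 202 RPM lay above both of their ob/+ sums. Without mir-6236, the share of miRNA counts was 2.83 times higher in ob/ob in jejunum (2.58 to 3.11) and 5.15 times in colon (4.65 to 5.72).

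Only 13 of the 104 entries reached a mean of 10 CPM over the 4 libraries, computed before TMM scaling, and were tested, among 322 entries in all. The filter divides mir-682, the lowest inside at a mean of 12.1 CPM before TMM, from mir-3471-2, the highest outside at 6.89 CPM on the same scale. Of the 13, mir-1194, mir-8111, mir-682, mir-1195 and mir-6360 had an ob/+ mean under 10 CPM before TMM and passed through their ob/ob values. A count of members that rose therefore speaks only of those that passed. Ranked by mean CPM before TMM among all entries, mir-6236 was at place 39, mir-6240 at 43, mir-3535 at 85, mir-1954 at 109, mir-3470b at 137 and mir-5098 at 154. These levels are counts per entry, not per base of hairpin.

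**Figure D2:**
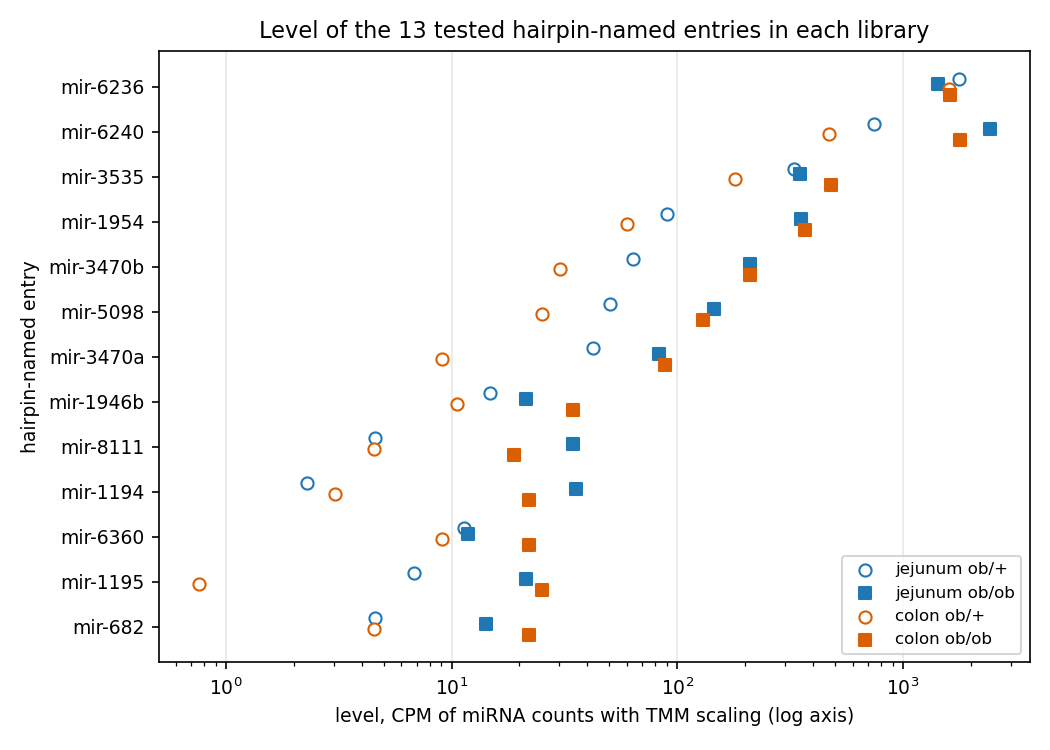
Level of the 13 tested hairpin-named entries in each library, in CPM of miRNA counts with TMM scaling on a log axis. Open circles are ob/+ and filled squares ob/ob, blue jejunum and orange colon; levels use the deposited counts with their fractions, such as the 0.5 count of mir-1195 in ob/+ colon, whereas levels in the text use rounded counts. In 12 of the 13 rows both squares lie right of both circles, and mir-6236 is the exception. Among the 12, mir-1194, mir-8111, mir-682, mir-1195 and mir-6360 passed the filter through their ob/ob values.

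The main comparison asked which entries differed between ob/ob and ob/+ ICC over both tissues. With tissue in the model, edgeR's quasi-likelihood test found 5 of the 13 tested members higher in ob/ob (Benjamini-Hochberg adjusted p under 0.05 over 322 entries) and 0 lower. Over all tested entries 8.07% were called higher and 10.2% lower. DESeq2 called mir-6240, mir-1954, mir-3470b and mir-5098, all higher. Its share over all entries is not given here, so these calls are not set against a background. By limma-voom fewer members were called, all higher, and its counts for members and for all entries are given in the last section. At an unadjusted p under 0.05 edgeR gave 9 of the 13 members and 131 of all 322 entries, both directions together. The median log2 change of the 13 was 1.95, against -0.09 over all 322. The 13 include mir-1194, mir-8111, mir-682, mir-1195 and mir-6360, which passed the filter through their ob/ob values. This favours a higher median and more low p-values among the members, so neither stands as support for a rise. The 5 that rose were mir-6240, mir-1954, mir-3470b, mir-5098 and mir-1194, and mir-1194 had passed the filter through its ob/ob values.

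mir-6240 was at 746, 2436, 472 and 1798 CPM. Both ob/ob libraries lay above both ob/+ libraries, and the rise was 3.52-fold (log2 1.82 ± 0.21, SE from the F statistic; adjusted p = 0.0119). Within jejunum its log2 ratio was 1.70 (1.53 to 1.89) and within colon 1.92 (1.73 to 2.13), so the 2 counting intervals overlapped. The authors' deposited table gives ratios of 3.005 and 4.03 for the same pairs.

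mir-1954 was at 91.3, 353, 60.7 and 372 CPM, from 40, 149, 40 and 118 counts after rounding. The ob/ob libraries were alike and stood well above the ob/+ libraries, a 4.85-fold rise (log2 2.28 ± 0.31; adjusted p = 0.0176). Within tissues the log2 ratio was 1.90 (1.44 to 2.50) in jejunum and 2.54 (2.09 to 3.17) in colon. mir-3470b, whose mature strand has the letters of a B1 element, was at 63.9, 209, 30.4 and 211 CPM. Its genotypes did not overlap either, and it rose 4.66-fold (log2 2.22 ± 0.39; adjusted p = 0.0291), with within-tissue log2 ratios of 1.64 (1.08 to 2.38) and 2.64 (2.06 to 3.60).

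mir-5098 was at 50.2, 147, 24.3 and 132 CPM and rose 3.90-fold (log2 1.96 ± 0.38; adjusted p = 0.0325). Its within-tissue log2 ratios were 1.47 (0.83 to 2.32) and 2.26 (1.58 to 3.38). mir-1194 rested on few counts, 1, 15, 2 and 7. Its log2 change was 3.23 ± 0.67 (adjusted p = 0.0367), with within-tissue ratios of 2.54 (1.26 to 9.36) and 1.87 (0.47 to 6.16) on the log2 scale. By DESeq2, mir-1194 did not pass (log2 3.47 ± 1.63; adjusted p = 0.130), whereas the other 4 did.

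With 1 library left out, the tissue term was dropped as well, and the group left with 1 library was assumed to vary like the other. Without an ob/ob library, the spread came from the ob/+ pair alone. In edgeR fits of this kind, 0 members were called without ob/ob jejunum and 0 without ob/ob colon (8 and 7 at an unadjusted p under 0.05), 8 without ob/+ jejunum and 4 without ob/+ colon. Of all 322 entries, 2, 2, 89 and 72 were called in these fits. The log2 change of mir-6240 without ob/ob jejunum was 1.57 (adjusted p = 0.138) and without ob/ob colon 2.13 (adjusted p = 0.0818). For mir-1954 the values were 2.30 (adjusted p = 0.103) and 2.36 (adjusted p = 0.0818), for mir-3470b 2.19 (adjusted p = 0.143) and 2.30 (adjusted p = 0.114), for mir-5098 1.86 (adjusted p = 0.169) and 2.14 (adjusted p = 0.117), and for mir-1194 2.90 (adjusted p = 0.112) and 3.72 (adjusted p = 0.0818). Without ob/+ colon, mir-1194 was the called member that no longer passed (log2 3.52, adjusted p = 0.0536).

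Among the 8 tested members that were not called, mir-8111, mir-682, mir-1195 and mir-6360 had entered the test through their ob/ob values. This favours a positive change. Over all 322 tested entries the median log2 change was -0.09, and the share of positive changes is not given here. Of the 8 members, 7 had a positive log2 change. They were mir-8111 (2.39 ± 0.62, adjusted p = 0.0578), mir-3470a (1.93 ± 0.60, adjusted p = 0.0875), mir-682 (1.95 ± 0.68, adjusted p = 0.102), mir-1195 (2.90 ± 1.05, adjusted p = 0.110), mir-1946b (1.20 ± 0.54, adjusted p = 0.162), mir-3535 (0.74 ± 0.39, adjusted p = 0.227) and mir-6360 (0.72 ± 0.63, adjusted p = 0.442). mir-3470a, which shares its registry number with mir-3470b, had 18.5, 35, 6 and 28 deposited counts. Its log2 ratios were 0.94 (0.16 to 1.92) and 2.80 (1.98 to 4.84) for the 2 tissues. How reads that match both mir-3470 hairpins were divided is not given in the sources used here. mir-8111 had 2, 14.5, 3 and 6 counts and mir-1195 had 3, 9, 0.5 and 8. Most of these wide errors go with single-digit counts in ob/+.

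mir-3535 was uneven between tissues. It was at 331, 349, 181 and 482 CPM, from counts between 119 and 153, and at 70.1, 41.9, 43.6 and 60.9 RPM. The jejunal pair had a log2 ratio of 0.07 (-0.26 to 0.42) and the colonic pair one of 1.40 (1.06 to 1.77), and these counting intervals do not overlap, though the difference between tissues has no replicate and no test. mir-6236 was at 1777, 1423, 1603 and 1619 CPM and was the only tested member whose genotypes overlapped on this scale. Its log2 change was -0.15 ± 0.21 (adjusted p = 0.620).

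Scaling to mappable reads shifts the median log2 change of all tested entries from -0.09 to -0.96, and of the 13 members from 1.95 to 1.09. The fit on that scale had infinite prior degrees of freedom, against 3.80 in the main fit. Its smaller p-values are therefore not a sign of stronger changes than those above. On that scale 5.9% of all entries were called higher in ob/ob and 49.1% lower, and 5 members were higher and 1 lower. The same 5 members were called higher: mir-6240 by 0.94 ± 0.28 (adjusted p = 0.0028), mir-1954 by 1.40 ± 0.37 (adjusted p = 0.0006), mir-3470b by 1.35 ± 0.41 (adjusted p = 0.0034), mir-5098 by 1.09 ± 0.45 (adjusted p = 0.0316) and mir-1194 by 2.39 ± 0.98 (adjusted p = 0.0299). For mir-6236 the log2 change was -1.03 ± 0.28 (adjusted p = 0.0008), a fall close to the median of -0.96 over all tested entries. The values of mir-3535 and mir-6360 turned negative, -0.13 and -0.15, and neither passed.

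**Figure D3:**
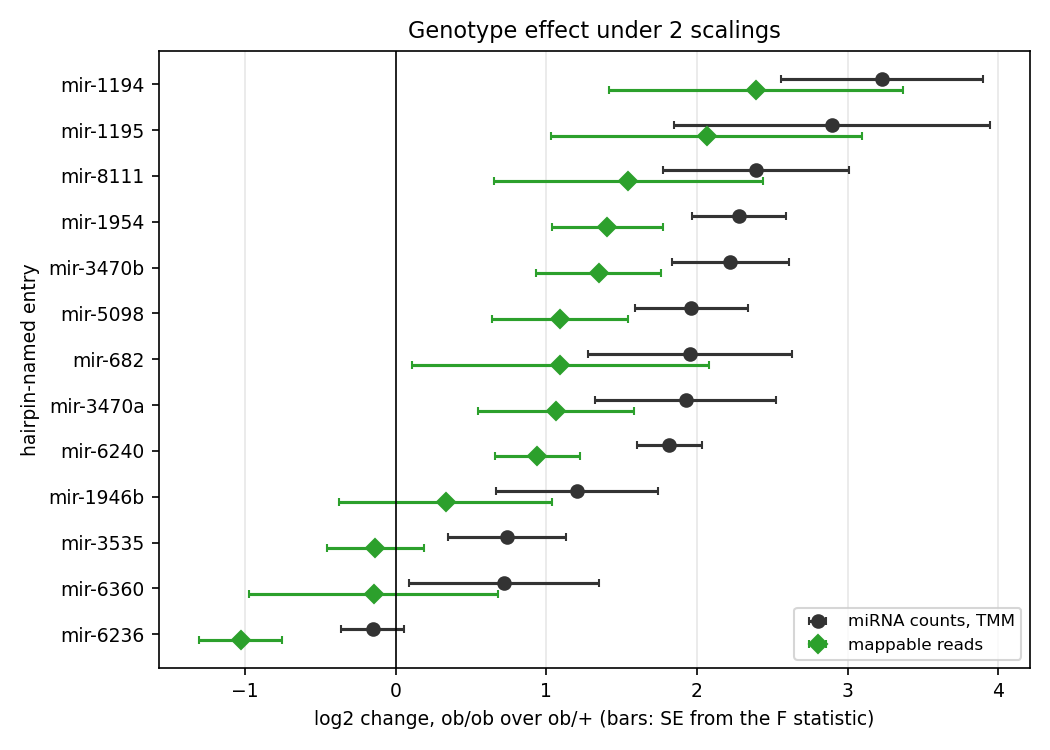
Log2 change of ob/ob over ob/+ for the 13 tested members, with tissue as a term. Black circles are scaled to miRNA counts with TMM and green diamonds to mappable reads, and bars are the SE from the F statistic. All diamonds lie left of their circles, mir-6240 moving from 1.82 to 0.94 and mir-6236 from -0.15 to -1.03.

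Without a test, the 2 ob/ob values lay above both ob/+ values in CPM for 12 of the 13 members, against 33.2% of all tested entries, and below both for 0, against 36.6%. On the RPM scale they lay above for 9 members, against 13.7% of all, and below for 1, mir-6236, against 67.4%. The 3 that overlapped only on the mappable scale were mir-1946b, mir-3535 and mir-6360. Among the 12 are mir-1194, mir-8111, mir-682, mir-1195 and mir-6360, which passed the filter through their ob/ob values, and this favours such an order. All of these but mir-6360 are among the 9. Of the members that did not need their ob/ob values to pass, mir-6240, mir-1954, mir-3470b, mir-5098 and mir-3470a lay above on both scales. For mir-1946b and mir-3535 this held in CPM only, and for mir-6236 on neither scale.

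Tissue gave no call. With genotype as a term, edgeR called 0% of the 322 entries, and DESeq2 and limma-voom also called 0; at an unadjusted p under 0.05 edgeR gave 13 of all entries and 1 member, mir-6240 (log2 colon over jejunum -0.55 ± 0.21). The members' tissue changes ran from -0.71 to 0.43, with a lowest adjusted p of 0.964.

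The other 91 entries, under the filter, were sparse. Their highest single count was 4.83, for mir-3473f in ob/ob jejunum, and they summed to 27.7, 77.6, 27.6 and 53.5 counts, or 13.4, 22.1, 10.1 and 21.3 RPM. On both scales the ob/ob sums lay above the ob/+ sums. Of all 104 entries, 84 had 4 counts or fewer over the 4 libraries and 53 had at most 1. A count appeared in 1 library only for 61 entries, and these libraries held 5, 28, 9 and 19 of them. ob/ob jejunum also had the most mappable reads, whereas ob/ob colon had fewer than ob/+ colon. Among the next highest, mir-1961 had 4, 2, 3 and 2 counts, mir-3471-2 had 2, 4, 2 and 3, mir-1191 had 1, 4, 3 and 2, and mir-1983 had 2, 1, 1 and 3. mir-1902 had 3 counts in ob/ob jejunum and 0 elsewhere, where 0 allows up to 3 counts, so no difference was detectable at this depth. The 4 entries of the mir-466, mir-467 and mir-669 families, whose largest cluster lies in an intron of Sfmbt2, summed to 0, 2.65, 0.25 and 0 counts; of these 4 only mir-669j lies within Sfmbt2, and the 5 entries that carry a copy number at the end of the name had 3, 7, 3 and 4.

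For 65 of the 104 entries the table also holds a mature entry of the same number, in every case 1 without an arm ending, which allows the hairpin name and the mature name to be set side by side. Of 30 such pairs with at least 10 counts in all, the hairpin name held more in 9 and the mature name in 21. The hairpin name held nearly everything for mir-6236, whose mature entry had 2, 2, 3 and 3 counts, for mir-1954 (3, 3, 0 and 2) and for mir-5098 (0, 3, 0 and 3). For mir-6240 it held 81.1% (exact binomial 95% interval 76.97 to 84.8), 89.8% (87.9 to 91.5), 74.0% (69.6 to 78.2) and 87.0% (84.2 to 89.5) of the pair. Both ob/ob shares lay above both ob/+ shares.

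These within-pair shares do not depend on how a library is scaled. The mature entry miR-6240 had 76, 117, 109 and 85 counts, and its log2 change of 0.69 ± 0.25 did not pass (adjusted p = 0.113), with -0.19 when scaled to mappable reads. For mir-3535 the hairpin share was 45.3% (39.8 to 50.9), 40.4% (35.3 to 45.6), 27.6% (23.4 to 32.1) and 63.0% (56.6 to 69.0). The ob/ob colon library was the highest and ob/+ colon the lowest, while the jejunal intervals overlapped. Its mature entry, miR-3535, had 175, 217, 312 and 90 counts (log2 change -0.17 ± 0.35, adjusted p = 0.733). Scaled to mappable reads, miR-3535 was called lower in ob/ob (-1.05 ± 0.31, adjusted p = 0.00246).

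The mir-3470 pairs behaved otherwise. For mir-3470b the hairpin share was 20.0%, 19.2%, 16.0% and 18.6%, with overlapping intervals, so hairpin and mature counts kept nearly 1 ratio in all libraries. The mature miR-3470b had 112.5, 370, 105 and 293.5 counts and rose by a log2 change of 2.16 ± 0.29 (adjusted p = 0.0176), beside 2.22 for the hairpin name. For mir-3470a the share was 42.9%, 33.0%, 28.6% and 38.9%, also with overlapping intervals, and the mature miR-3470a rose by 2.06 ± 0.38 (adjusted p = 0.0312). miR-1194 rose by 2.11 ± 0.37 (adjusted p = 0.0291) and miR-1195 by 2.03 ± 0.47 (adjusted p = 0.0481). Scaled to mappable reads, miR-1195 no longer passed (1.16 ± 0.66, adjusted p = 0.125), and miR-3470b (1.28 ± 0.31, adjusted p = 0.000188), miR-3470a (1.19 ± 0.44, adjusted p = 0.0161) and miR-1194 (1.23 ± 0.52, adjusted p = 0.0346) did. The difference between a hairpin-named entry and its mature entry was not tested.

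**Figure D4:**
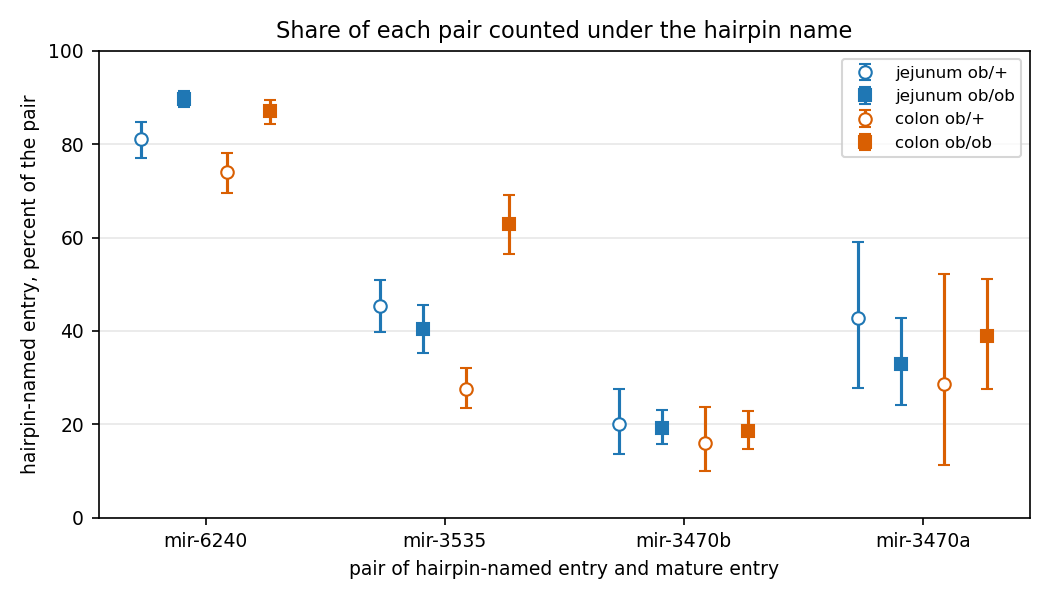
Share of each hairpin and mature pair that was counted under the hairpin name, in percent, for 4 pairs in the 4 libraries. Points are shares and bars exact binomial 95% intervals. Both ob/ob points of mir-6240 (89.8% and 87.0%) lie above both ob/+ points (81.1% and 74.0%), and the mir-3470b points lie between 16.0% and 20.0%.

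Traits of the registry and the sequence were also described for the members. Of the 104, 82 have a registry number of 1000 or more, and those held 1402, 2225, 1611 and 1575 of the hairpin-named counts. Registry numbers of the other entries were not counted, so this share has no background. All 89 members with a RefSeq mature sequence have exactly 1 annotated mature strand, whereas 80.3% of the 483 other RefSeq hairpins whose mature miRNAs appear in the deposited table have more than 1. The members were chosen for names without an arm ending. Mature entries that also lack one were not compared separately, so the trait cannot be called particular to hairpin-named entries. The 76 mature strands located in their hairpin lay about evenly toward the 5′ end (37) and toward the 3′ end (39). The 77 matched hairpins had a median length of 106 bases against 81 for the others and a median GC content of 49.5% against 51.5%. Their predicted folding energy by RNAfold was a median of -34.5 kcal/mol per 100 bases against -42.4, a weaker predicted fold. mir-6240, at -21.1, was weaker still, and mir-1954, at -48.3, stronger than either median. Of 100 members with a gene location, 67 lie within another gene, 59 of them protein coding. Gene locations of the other entries were not counted either.

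Repeat-like sequence was scored by looking for any 18-base stretch of the hairpin, on either strand, in 32851 RefSeq promoter windows (250 bases before to 50 after a gene's start). A stretch in at least 10 windows was found for 10 of 77 member hairpins (12.99%) and for 5 of 483 others (1.04%). The mir-1954 hairpin had stretches in 96 windows and mir-3473f in 111. miR-3470b, scored on its mature strand, had them in 22, which makes 11 repeat-like members. Their counts summed to 71.7, 252, 66.8 and 191, or 34.6, 71.9, 24.5 and 76.1 RPM, with the ob/ob libraries above on both scales. Most of these counts were those of mir-1954 and mir-3470b. The cut of 10 windows leaves out miR-1195 (4 windows) and miR-1946b (1 window). Their mature strands still shared an 18-base stretch with transcripts of 1280 and 133 genes. For mir-3470a there was no matched sequence to score. The matched hairpins that were not scored repeat-like, mir-6240 (1 window) among them, summed to 168, 307, 121 and 244 RPM, also with both ob/ob libraries above. Of these sums mir-6240 alone made up 158, 292, 114 and 227 RPM, so they say little of the other hairpins in this list. The score searched promoter windows only, so likeness to other sequence, such as ribosomal RNA, was not scored. Between different members among the printed sequences and mir-682, the longest shared stretch was 9 bases. A shared stretch describes the letters only, and whether a read counted to a member came from its own locus was not tested.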

How the data were processed

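Small RNA was sequenced from 4 pooled libraries, 1 per tissue and genotype, grouped by the labels' titles. Small intestine columns are the jejunal libraries. Adapter trimming, a minimum read length of 15 nt and assignment to miRBase 20 entries on mm9 were done by the authors, per the file headers. No aligner or counting rule is given in the sources used here. The authors' raw values are expected counts, of which 16 members hold fractions, and they were rounded to whole numbers for fits. The authors' normalized signal is the deposited count times 1 factor per library. The authors' deposited ratio of ob/ob over ob/+ covers 235 entries, 9 of them members. Other deposited values, the read numbers per step, gave the mappable reads.

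Counts were scaled with TMM factors of 0.940, 0.973, 0.920 and 1.19, and the 322 entries that averaged 10 CPM or more before TMM were fitted with edgeR 4.0.16 (R 4.3.3) with tissue or genotype as the other term. The fit had 1 residual degree of freedom, 3.80 prior degrees of freedom and a biological coefficient of variation of 17.3%. P-values were adjusted by Benjamini-Hochberg over the 322 entries with a threshold of 0.05, and measure only the spread between these libraries. An SE is the log2 change divided by the square root of F. In fits the count 0.5 of mir-1195 was rounded to 0. Within-tissue log2 ratios used a prior count of 2, with exact conditional binomial 95% intervals that do not use the prior. The fits were also run on simulated counts with the same dispersion for every entry. That run does not test entries that vary unequally or the lack of replicates. Sequences came from RefSeq (GRCm38.p6), and folding from RNAfold 2.7.2. A count of 1 was worth between 1.40 and 3.74 CPM before TMM, and a count of 0 allows 3 counts, between 4.19 and 11.2 CPM. Libraries had no molecular identifiers, so intervals and floors cover counting error only.

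Named by rule are all tested members, the 10 with the most counts and the 5 others with the largest count in 1 library and at most 3 in each of the rest; mir-3473f and the mature entries were named after their values were seen. Members and lists were chosen with earlier results of these data known. Alternatives were other scalings, filters and rounding, DESeq2 1.42.0, limma-voom (limma 3.58.1), no term for the other factor and each library left out. Rounding 0.5 up was added after seeing the data.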

Additional observations from a re-analysis of the deposited data

How the results depend on the processing

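The number of hairpin-named entries called by genotype was 5. It was 9 with median-of-ratios factors, 10 with TMM factors computed without the hairpin-named entries, 8 with the authors' factors, 3 with limma-voom and 0 without an abundance filter, and 0 to 8 with 1 library left out. For all entries, called 59 times (26 higher, 33 lower), these counts were 115 (59 and 56), 113 (67 and 46), 121 (55 and 66), 34 and 2, with 177 (19 and 158) on mappable reads, 72 (44 and 28) on library totals, 48 (20 and 28) with 0.5 rounded up and 2 to 89 with 1 library left out. By tissue, 2 of all entries were called with median-of-ratios factors, with TMM without hairpin-named entries and with the authors' factors. Under 4 of the scalings, mappable reads among them, the prior degrees of freedom were infinite, and the cause was not tested.

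With mappable reads as denominator the share of hairpin-named entries was 0.068%, 0.064%, 0.059% and 0.063%, and the ratio of ob/ob over ob/+ was 0.941 in jejunum and 1.07 in colon. As shares of the miRNA counts, the values without mir-6236 were 0.134%, 0.379%, 0.078% and 0.404% (ratios 2.83 and 5.15), and without entries that have a mature entry 0.0045%, 0.0085%, 0.0027% and 0.012% (ratios 1.90 and 4.66).

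Of 200 single-entry genotype values under alternatives, 158 kept their direction and side of the threshold, 19 passed newly, 19 no longer passed and 4 changed sign: mir-3535 (-0.13) and mir-6360 (-0.15) on mappable reads, and mir-6236 on library totals (0.057) and within -0.23 to 0.060 with 1 library left out. The tissue change of mir-6236 was -0.0088 in DESeq2. With 1 library left out and no genotype term, tissue changes spanned 0 for 13 members: mir-1194 -2.64 to 2.17, mir-1195 -5.91 to 0.83, mir-1946b -0.78 to 0.97, mir-1954 -1.97 to 1.23, mir-3470a -2.82 to 0.51, mir-3470b -2.25 to 0.90, mir-3535 -0.98 to 0.50, mir-5098 -2.10 to 0.61, mir-6236 -0.14 to 0.12, mir-6240 -1.85 to 0.60, mir-6360 -0.41 to 0.90, mir-682 -1.08 to 1.36, mir-8111 -2.09 to 1.18. No paired analysis was possible because each group has 1 library, so no replicate number could serve as a block; the tissue term of the genotype fit compares the genotypes within each tissue.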
